A study of Homo sapiens with 27 samples.

Results

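The data described here are the counts of 8 genes of the p53 pathway and of apoptosis, MDM2, MDM4, CDKN1A, BAX, BCL2L1, BCL2L11, MCL1 and BBC3, in RM82 cells treated with a splicing kinase inhibitor or with solvent. The genes were chosen by name, as members of the pathway and as genes whose RNA can be spliced into forms of different function. Of the 8 genes, 7 are among the 18776 genes with a count in these libraries, BBC3 being the exception, and 59 of their 115 annotated transcripts were counted, of 93530 transcripts listed in all.

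RM82 is an established human Ewing's sarcoma line. The labels name no genetic change made for the experiment, and all cells were kept in the same medium. A group of 3 libraries came from cells given SGC-CLK-1, an inhibitor of the CLK splicing kinases, and the other group of 3 from cells given DMSO, the solvent used as control, both for 24 h. The dose was not given in the sources used here, and the labels do not say whether the 3 libraries of a group came from separate cultures. The study states in general that its experiments were repeated independently, without naming these libraries, and the p-values measure the spread between them, which may be technical. Poly(A) RNA was copied from an oligo(dT) primer, tagged with unique molecular identifiers (UMIs), and, per the methods of the study, read on a nanopore sequencer, while the labels name a kit for Illumina libraries. The deposited value is the number of UMIs per annotated transcript. The total count was 666702, 362826 and 373004 in the SGC-CLK-1 libraries and 416352, 523456 and 372876 in the DMSO libraries.

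p53 is a transcription factor that is held at a low level by MDM2, a ubiquitin ligase, and by MDM4, a relative of MDM2 that binds p53 and covers its activation domain. CDKN1A (p21), a cell cycle inhibitor, and MDM2, BAX and BBC3 (PUMA) are known targets of p53. The BCL2 family then decides whether mitochondria release cytochrome c. BAX opens the outer membrane, BCL2L1 (BCL-X) and MCL1 restrain it, and BCL2L11 (BIM) and BBC3 are BH3-only proteins that set it free. Kinases of the CLK family phosphorylate SR proteins, which help to define exons, and MDM4, MCL1 and BCL2L1 are textbook cases of genes in which a single exon or splice site changes what the protein does.

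The RM82 label was compared with markers of Ewing's sarcoma and of other cells. Of 12 Ewing's sarcoma markers, 11 had counts. Their sum was between 2265 and 3781 counts per library, of which CAV1, the most abundant, had between 1096 and 2064. The surface antigen CD99 had between 34 and 74 counts. NR0B1, LIPI and PRKCB had few, between 1 and 6, 0 and 11, and 5 and 13, and NKX2-2, a homeobox gene induced by the Ewing's sarcoma fusion protein, was at 0 in every library. The 9 leucocyte and T cell markers summed to between 9 and 18 counts, with PTPRC as their most abundant gene, and the 6 fibroblast and endothelial markers to between 4 and 10, led by COL1A2. The 10 plasma cell markers summed to between 25 and 64 counts, most of them CD38 (between 22 and 46), and the 5 epithelial markers to between 12 and 40, most of them KRT8.

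The 3 stretches of sequence printed here define the splice forms compared below. They were taken from the human genome (GRCh38), with exons as annotated in GENCODE release 44, and are written 5′ to 3′ on the strand of the gene. The first is exon 6 of the reference transcript of MDM4, MDM4-203 (chr1:204537428-204537499 as printed, plus strand), a coding exon of 68 bases. When exons 5 and 7 are joined without it the reading frame is lost, and the annotated coding sequence falls from 1470 bases in MDM4-203 to 420 bases in MDM4-205. The second is the central exon 2 of MCL1 (chr1:150578242-150578493 as printed, minus strand), of 248 bases. Transcript MCL1-201, which lacks it, encodes the short form that has lost the membrane anchor, in a coding sequence of 813 bases in place of 1050. The third is the part of exon 2 of BCL2L1 that lies between the splice donor of the short form and that of the long form (chr20:31721653-31721843 as printed, minus strand), of 189 bases. Use of the upstream donor leaves a coding sequence of 510 bases in place of 699 and gives BCL-XS, which promotes apoptosis, in place of BCL-XL, which restrains it. In the MDM4 and MCL1 lines the capitals mark the last bases of the intron before the exon and the first bases of the intron after it. In the BCL2L1 line they mark the GT of the short-form donor and the GT of the long-form donor.
MDM4 exon 6: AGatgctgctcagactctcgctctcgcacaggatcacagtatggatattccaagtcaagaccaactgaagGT
MCL1 exon 2: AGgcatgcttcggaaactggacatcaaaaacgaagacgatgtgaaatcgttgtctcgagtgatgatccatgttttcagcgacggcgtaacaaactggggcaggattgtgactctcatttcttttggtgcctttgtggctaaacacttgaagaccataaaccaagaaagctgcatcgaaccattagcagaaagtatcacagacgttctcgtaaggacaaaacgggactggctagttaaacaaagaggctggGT
BCL2L1 exon 2 segment: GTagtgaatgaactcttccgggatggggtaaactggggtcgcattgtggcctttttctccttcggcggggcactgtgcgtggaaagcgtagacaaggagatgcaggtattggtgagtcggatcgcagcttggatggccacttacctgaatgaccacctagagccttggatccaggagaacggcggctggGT

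The first question was how many counts each gene had in each library. Counts were added over the transcripts of a gene and, where libraries were compared, scaled to the total count of the library (CPM, counts per 1000000 counts). A read that matched several transcripts could be kept on each of them by the authors, so a single UMI can stand in the sum more than once. MDM2 and MDM4 were the 2 of the 8 genes with enough counts for a test across all genes. The other 6 had between 0 and 48 counts over all 6 libraries.

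**Figure D1:**
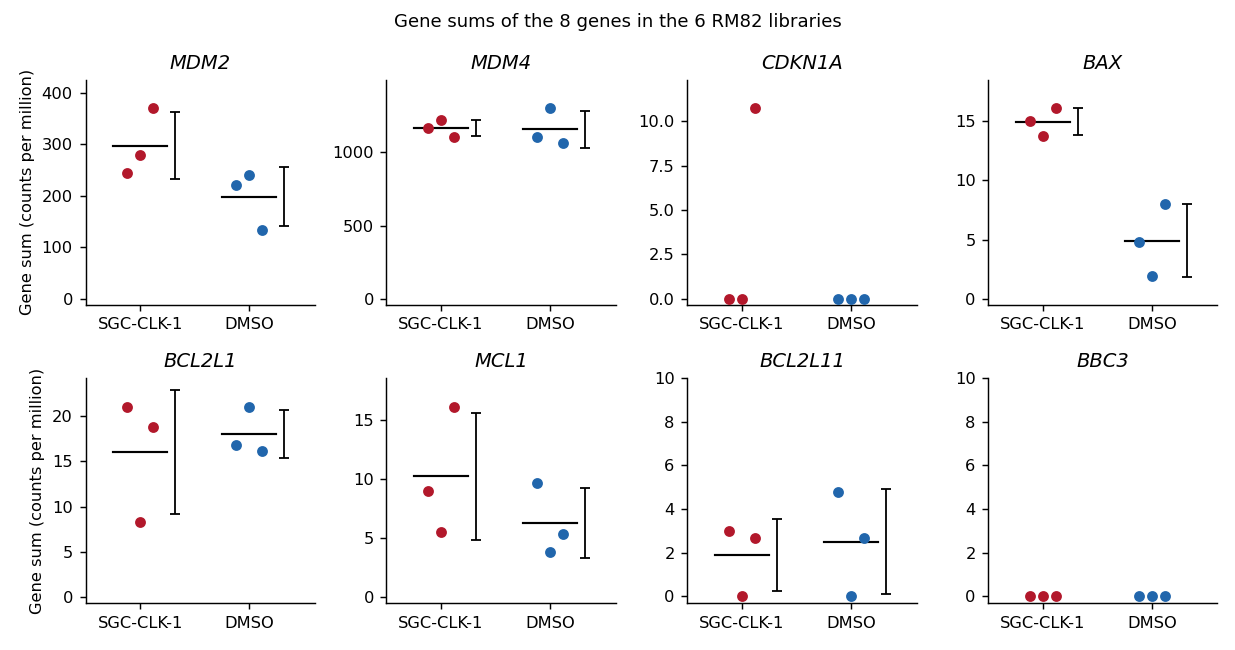
Gene sums in CPM for each of the 8 genes, each point 1 library, red for SGC-CLK-1 and blue for DMSO, with the mean as a line and the SD as a bar (neither drawn for CDKN1A and BBC3); the axes differ between genes. MDM2 and BAX are the genes whose 3 SGC-CLK-1 libraries lie above the 3 DMSO libraries, and the MDM4 means are 1166 and 1157 CPM. That order was found for 12.2% of all tested genes and 9.38% of genes not tested with at least 15 counts. The groups overlapped for MDM2 under another scaling and for BAX with the largest transcript count.

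MDM2 (ENSG00000135679, chr12:68808177-68845544, plus strand), the ubiquitin ligase that marks p53 for destruction, had 163, 101 and 138 counts in the SGC-CLK-1 libraries and 92, 126 and 50 in the DMSO libraries. These are 244, 278 and 370 CPM against 221, 241 and 134 CPM. Every SGC-CLK-1 library was above every DMSO library on this scale, the closest pair being 244 and 241 CPM, and the lowest value belonged to DMSO replicate 3. The means were 298 ± 64.9 and 199 ± 56.7 CPM (SD, n = 3). The fold was 1.41 with a 95% interval from 0.975 to 2.04, and MDM2 did not pass the edgeR quasi-likelihood test (log2 fold change 0.50, SE 0.25, Benjamini-Hochberg adjusted p = 0.396). With TMM scaling, which corrects for the composition of a library, the groups overlapped, since SGC-CLK-1 replicate 1 was at 281 CPM and DMSO replicate 2 at 287 CPM. Without DMSO replicate 3 the log2 fold change was 0.30, and without SGC-CLK-1 replicate 3 it was also 0.30.

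MDM4 (ENSG00000198625, chr1:204516379-204558120, plus strand), the p53-binding relative of MDM2, had 780, 443 and 413 counts with SGC-CLK-1 and 460, 681 and 397 with DMSO. In CPM these were 1170, 1221 and 1107 against 1105, 1301 and 1065. The groups overlapped, and the DMSO libraries held both the highest and the lowest value. The means were 1166 ± 57.0 and 1157 ± 126 CPM (SD, n = 3), and the fold was 0.957 with a 95% interval from 0.740 to 1.24 (edgeR, log2 fold change −0.06, SE 0.17, adjusted p = 0.911). The sign of this value was not stable. It was 0.01 when counts were scaled by library size alone and 0.02 without DMSO replicate 2. When the largest transcript count of each library was used in place of the sum, 232 counts stood against 232. These were between 158 and 169 CPM with SGC-CLK-1 and between 156 and 195 CPM with DMSO. A UMI may be counted on several MDM4 transcripts, so the sums of MDM4 and MDM2 do not compare their numbers of molecules.

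In the comparison of gene sums, edgeR called 0 of these 2 genes at an adjusted p under 0.05, DESeq2 and limma-voom also called 0, and 0 had an unadjusted p under 0.05. Over all 6344 genes tested, 15 were called, which is 0.236%, while an unadjusted p under 0.05 was found for 6.89% on the higher side and 6.97% on the lower side. The share of all tested genes whose 3 SGC-CLK-1 libraries lay above the 3 DMSO libraries in CPM was 12.2%. The median log2 fold change of all tested genes was −0.0012. In the edgeR fit without a filter on low counts, the unadjusted p of MDM2 was 0.0393 and its adjusted p 0.530. In that fit 4.81% of all 18776 genes had an unadjusted p under 0.05 on the higher side.

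The genes with levels most like those of MDM4 over the 6 libraries were KAT5, an acetyltransferase that acts on histones and p53, BCHE, which encodes butyrylcholinesterase, and the zinc finger gene ZNF718. Pearson's r of log2 CPM with MDM4 was 0.987, 0.981 and 0.979. These values describe 6 libraries, and the genes were picked as the highest of all tested genes.

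CDKN1A (ENSG00000124762, chr6:36676460-36687337, plus strand), which encodes the cell cycle inhibitor p21 and is a classical target of p53, had 0, 0 and 4 counts with SGC-CLK-1 and 0 in every DMSO library. The 4 counts were 1 count on each of 4 transcripts (CDKN1A-201, CDKN1A-203, CDKN1A-204 and CDKN1A-208) in SGC-CLK-1 replicate 3. They cannot be told apart from a single UMI counted on 4 transcripts. A count of 0 allows up to 3 counts, which is 2.29 CPM over the 3 DMSO libraries together, and no fold is given.

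BBC3 (ENSG00000105327, chr19:47220822-47232766, minus strand), which encodes the BH3-only protein PUMA, had 0 counts in all 6 libraries. The level that 3 counts would give was between 4.50 and 8.27 CPM in a single library and 1.10 CPM over all 6. BBC3 RNA below these levels was not detectable at this depth. These limits, and the counting intervals that follow, cover counting error only.

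BAX (ENSG00000087088, chr19:48954815-48961798, plus strand), the protein that opens the outer mitochondrial membrane, had 10, 5 and 6 counts with SGC-CLK-1 and 2, 1 and 3 with DMSO. In CPM these were 15.0, 13.8 and 16.1 against 4.80, 1.91 and 8.05. The groups did not overlap, an order found for 9.38% of the 4757 genes that were not tested but had a total of at least 15 counts. Together, 21 counts stood against 6, a rate ratio of 3.28 with a 95% counting interval from 1.28 to 9.92, and the exact two-sided permutation test over libraries gave p = 0.1, the smallest value that 3 against 3 can give. The sum is spread over 8 transcripts, on which a UMI may be counted more than once. When the largest transcript count in each library was used in place of the sum, 9 counts stood against 4, the ratio was 2.11 with an interval from 0.588 to 9.36, and the groups met, at 5.36 CPM in SGC-CLK-1 replicate 3 and 5.36 CPM in DMSO replicate 3 (exact permutation p = 0.2). In the edgeR fit without a filter on low counts, BAX had a log2 fold change of 1.56 (SE 0.90, adjusted p = 0.668). Its most abundant transcript was BAX-201 with 5, 2 and 2 counts against 1, 1 and 2, ahead of the reference transcript BAX-202 with 1, 0 and 2 against 1, 0 and 0.

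BCL2L1 (ENSG00000171552, chr20:31664452-31723989, minus strand), which encodes BCL-XL and BCL-XS, had 14, 3 and 7 counts with SGC-CLK-1 and 7, 11 and 6 with DMSO. The CPM were 21.0, 8.27 and 18.8 against 16.8, 21.0 and 16.1, and the groups overlapped. The summed counts were 24 in each group, a rate ratio of 0.936 with a counting interval from 0.509 to 1.72 (exact permutation p = 0.8). With the largest transcript count of each library in place of the sum, 9 counts stood against 9 and the interval ran from 0.329 to 2.66 (exact permutation p = 0.9).

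MCL1 (ENSG00000143384, chr1:150560895-150579738, minus strand), the short-lived guardian of the outer mitochondrial membrane, had 6, 2 and 6 counts with SGC-CLK-1 and 4, 2 and 2 with DMSO. The groups overlapped, with between 5.51 and 16.1 CPM against between 3.82 and 9.61 CPM. These counts lay on MCL1-202 and MCL1-205, which had the same count as each other in every library. On either transcript alone 7 counts stood against 4, a rate ratio of 1.64 with an interval from 0.416 to 7.63 (exact permutation p = 0.4).

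BCL2L11 (ENSG00000153094, chr2:111119378-111168444, plus strand), which encodes the BH3-only protein BIM, had 2, 0 and 1 counts with SGC-CLK-1 and 2, 0 and 1 with DMSO. Its rate ratio was 0.936 with an interval from 0.125 to 6.99. The most abundant of its 3 counted transcripts was BCL2L11-205, with 1, 0 and 0 counts against 2, 0 and 0.

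The second question was whether single transcripts changed. Of the 59 counted transcripts, 9 passed the filter on low counts, 8 of MDM4 and 1 of MDM2. Over all 7840 transcripts tested, edgeR called 310, which is 3.95%, and it called 0 of these 9. DESeq2 also called 0. At an unadjusted p under 0.05 there was 1 of the 9, MDM2-202, beside 18% of all tested transcripts.

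MDM2-202 (ENST00000258149) is the reference transcript of MDM2, 7490 bases long with a coding sequence of 1491 bases, and its annotated start is the 5′ end of the gene. It had 119, 76 and 95 counts with SGC-CLK-1 and 63, 86 and 36 with DMSO. In CPM these were 178, 209 and 255 against 151, 164 and 96.5, and the groups did not overlap. All tested transcripts with that order made up 11.3%. The fold was 1.54 with a 95% interval from 1.11 to 2.14 before adjustment, and the adjusted p of edgeR was 0.136 (log2 fold change 0.62, SE 0.23). Over 12 alternatives the log2 fold change lay between 0.41 and 0.78 and the adjusted p between 0.0764 and 0.683, so MDM2-202 was called in none of them. The lowest log2 fold change was the one without DMSO replicate 3.

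MDM2-202 held 70.9% of the MDM2 counts, and the rest were spread over 22 transcripts with between 1 and 31 counts each. Of these, 3 transcripts, MDM2-230, MDM2-214 and MDM2-226, lie wholly inside the last exon of MDM2-202. They had 19, 7 and 6 counts in sum with SGC-CLK-1 and 19, 19 and 2 with DMSO, or 28.5, 19.3 and 16.1 CPM against 45.6, 36.3 and 5.36. Those groups overlapped, and SGC-CLK-1 did not stand higher there (exact permutation p = 0.6). The other 19 transcripts had 25, 18 and 37 counts against 10, 21 and 12. Their means were 62.1 ± 32.7 and 32.1 ± 8.05 CPM (SD, n = 3), and the groups overlapped (exact permutation p = 0.2). This split of the MDM2 transcripts was not among the planned comparisons, and its p-values are descriptive.

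Of the counted MDM2 transcripts, 14 begin between 825 and 1049 bases after MDM2-202. Of these, MDM2-224, MDM2-212, MDM2-211 and MDM2-221 have a first exon that MDM2-202 lacks, on the side of the internal promoter at which p53 acts. The rest begin inside exon 2 of MDM2-202, so the group as a whole does not mark that promoter. Together the 14 transcripts had 17, 14 and 26 counts with SGC-CLK-1 and 8, 15 and 8 with DMSO. In CPM these were 25.5, 38.6 and 69.7 against 19.2, 28.7 and 21.5. The groups overlapped, since SGC-CLK-1 replicate 1 was below DMSO replicate 2. This group of transcripts was formed after the values were seen and was not tested. The most abundant of them were MDM2-224, with 4, 4 and 8 counts against 3, 3 and 2, and MDM2-212, with 4, 4 and 2 against 5, 5 and 2. MDM2-211, also picked after its values were seen, had 2 counts in every SGC-CLK-1 library and 0 in every DMSO library. With 6 counts in total it was not tested, and the share of all such transcripts in that order was not computed. No start site was measured in these counts, and the annotated start is that of the transcript to which a read was assigned.

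The 8 MDM4 transcripts that passed the filter had between 334 and 427 counts each over the 6 libraries. Their log2 fold changes ran from −0.18 (MDM4-216) to 0.12 (MDM4-203), with adjusted p between 0.733 and 0.984 in edgeR, and all of their groups overlapped. The interval for MDM4-203 ran from a fold of 0.786 to 1.51. When 1 library was left out, MDM4-216 ranged from −0.35 (without DMSO replicate 3) to −0.037 (without DMSO replicate 2).

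**Figure D2:**
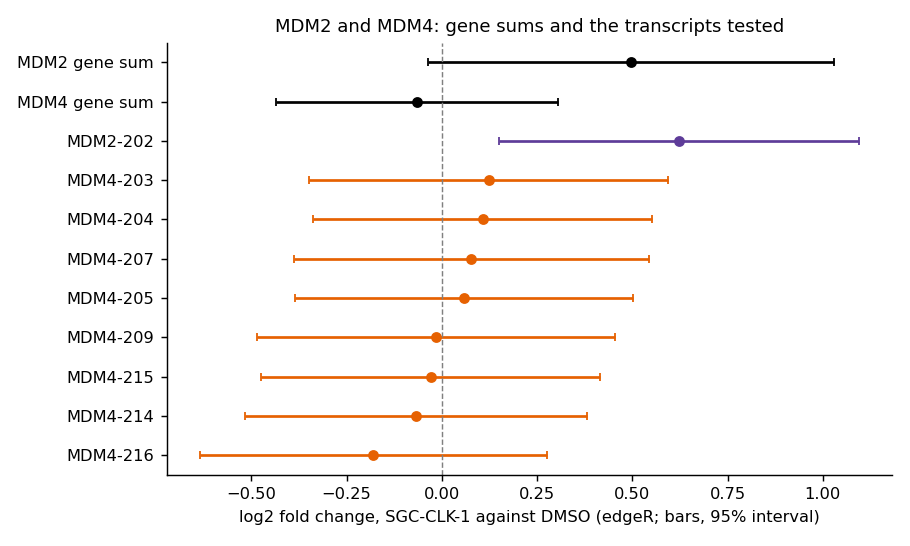
Log2 fold change, SGC-CLK-1 against DMSO, of the MDM2 and MDM4 gene sums and of the 9 transcripts tested, with 95% intervals from edgeR before adjustment. MDM2-202 is the row whose interval lies above 0 (adjusted p = 0.136), while the 8 MDM4 transcripts lie between −0.18 and 0.12.

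The counts of these 8 MDM4 transcripts moved together more closely than separate counts do. Set against each other over the 6 libraries, they had a chi-square of 0.575 per degree of freedom, where independent counts in constant proportion give about 1. It was below 1 in 25 of the 28 pairs of transcripts. The 8 transcripts share 5153 bases, between 51.3% and 84.4% of each, and between 83.4% and 97.3% of each lies in its last exon. The MDM4 transcripts are given here by their range and not as 8 separate results.

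The third question was whether the mixture of transcripts changed. The usage test asks whether the transcripts of a gene change by different amounts, and MDM4 was the gene among the 8 with at least 2 transcripts in it. For MDM4 the diffSpliceDGE Simes test of edgeR over 8 transcripts gave an adjusted p of 1.00. Of all 1806 genes in this test 6 were called, which is 0.332%. For MDM4 the test cannot decide whether the mixture changed. The counts on its 8 transcripts cannot be told apart from shared alignments of the same UMIs. Of its 15 counted transcripts, 0 had the same counts as another in all libraries, so any sharing was partial, and its extent is not known.

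The splice forms of MDM4 were then compared directly, as the share of counts on coding transcripts without exon 6 (MDM4-205 and MDM4-213) among those that either hold exon 6 (MDM4-203 and MDM4-207) or join exons 5 and 7. MDM4-205 had 100, 60 and 59 counts with SGC-CLK-1 and 59, 88 and 54 with DMSO. MDM4-203 had 113, 56 and 46 against 56, 88 and 41. In both groups the 2 transcripts had counts of similar size. The share without exon 6 was 32.6%, 35.7% and 39.2% with SGC-CLK-1 and 34.7%, 34.1% and 40.3% with DMSO. The exact binomial (Clopper-Pearson) interval, which takes each count as independent, ran from 27.4% to 38.1% in SGC-CLK-1 replicate 1, the library with the most counts, and from 31.9% to 49.1% in DMSO replicate 3, the one with the fewest. The mean shares were 35.8% ± 3.32 and 36.4% ± 3.41 (SD, n = 3), a difference of −0.55 percentage points. No test is read from this difference, since the counts on these forms cannot be told apart from shared alignments of the same UMIs. These transcripts share their last exon, and the part of the transcript that each read covered was not analysed here.

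**Figure D3:**
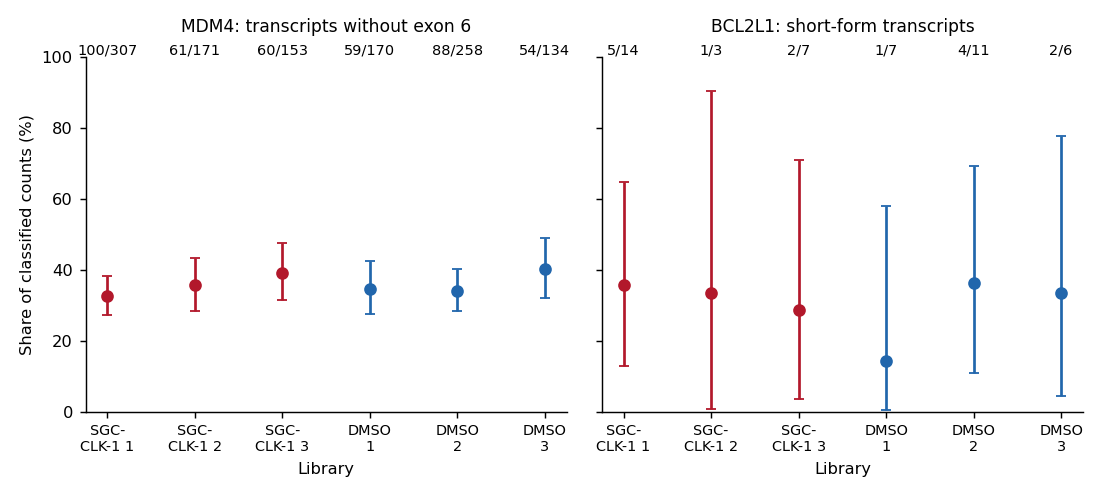
Share of classified counts on MDM4 transcripts without exon 6 (left) and on short-form BCL2L1 transcripts (right) in each library, in percent, with exact 95% binomial intervals; the counts behind each share stand above it. The MDM4 shares lie between 32.6% and 40.3% in both groups, and the BCL2L1 intervals span most of the axis.

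For BCL2L1 the long form was counted on BCL2L1-201 and BCL2L1-203 and the short form on BCL2L1-202 and BCL2L1-205. BCL2L1-201 had 5, 1 and 3 counts with SGC-CLK-1 and 3, 4 and 2 with DMSO. BCL2L1-202 had 3, 1 and 2 against 1, 3 and 2. The short-form share was 5 of 14, 1 of 3 and 2 of 7 counts with SGC-CLK-1, or 35.7%, 33.3% and 28.6%, and 1 of 7, 4 of 11 and 2 of 6 with DMSO, or 14.3%, 36.4% and 33.3%. The groups overlapped, with DMSO replicate 1 as the lowest library. The narrowest of these intervals, that of SGC-CLK-1 replicate 1, ran from 12.8% to 64.9%. The difference of 4.55 percentage points turned to −2.31 without DMSO replicate 1. No test is read from it, as for MDM4. In SGC-CLK-1 replicate 2 the 3 counts were 1 on each of BCL2L1-201, BCL2L1-203 and BCL2L1-202, and in DMSO replicate 3 the 6 counts were 2 on each, so the shares cannot be told apart from single UMIs counted on all of them, and the intervals take each count as independent.

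For MCL1 all 22 counts lay on transcripts that hold exon 2, and MCL1-201, the short form, had 0 counts. With a single transcript counted, so that no UMI stands for more than 1 count, the libraries with the most MCL1 counts, SGC-CLK-1 replicates 1 and 3, had 0 of 3, which allows a short-form share of up to 70.8% (exact 95% interval). No comparison of MCL1 splice forms could be made at this depth.

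The 9 transcripts that passed the filter held 91.8% of all counts of the 8 genes. They were also the 9 longest of the 115 annotated transcripts, from 6102 to 10050 bases, and the longest that did not pass had 5171 bases. Each of the 9 has an internal run of at least 10 A in its sequence, with the last 30 bases left aside, the longest being 20 A in the MDM4 transcripts and 11 A in MDM2-202. The 20 A of the 8 MDM4 transcripts are the same stretch of their shared last exon, so these transcripts are not separate cases. Of the 106 transcripts that did not pass, 1 has such a run, BCL2L11-212, and it had 0 counts. Among the 86362 listed transcripts that were matched to the annotation, 27.1% of the 7424 tested and 8.45% of the 78938 not tested hold such a run, and their median lengths were 3054 and 1479 bases. The first strand was primed with oligo(dT), which can bind a run of A. The part of these runs and of length in the counts was not tested, and the comparison was chosen after the values were seen.

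**Figure D4:**
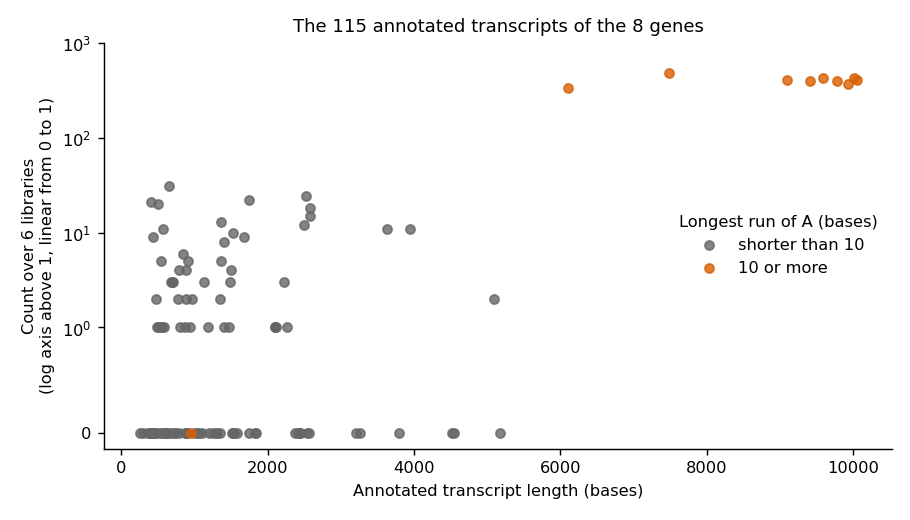
Annotated length in bases and summed count over the 6 libraries for each of the 115 transcripts of the 8 genes, orange where the longest internal run of A has at least 10 bases. The 9 transcripts at the upper right, from 6102 bases on, have between 334 and 475 counts each, and the highest of the other 106 has 31.

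Other genes of the pathway were described from 4 lists of known members. The regulators of p53 were 20 genes, of which 19 were tested. By edgeR 0 were called. DESeq2 also called 0, of the 17 to which it gave an adjusted p. An unadjusted edgeR p under 0.05 was found for 2 on the higher side and 1 on the lower side, beside 6.89% and 6.97% of all tested genes. A positive log2 fold change was found for 15 of the 19, against 49.9% of all tested genes, and the median was 0.23. This depended on the counting, the tool and the library. With the largest transcript of each gene in place of the sum, 5 of 11 were positive and the median was −0.039, and with limma-voom the median was 0.065. When 1 library was left out the median lay between 0.084 and 0.17, and without DMSO replicate 2 a positive value was found for 9 of 17.

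Among these regulators CHEK2, a kinase that phosphorylates p53 after DNA damage, had 70, 45 and 37 counts against 30, 34 and 13 (log2 fold change 0.84, SE 0.31, edgeR adjusted p = 0.224). HUWE1, a ubiquitin ligase for p53 and MCL1, had 129, 107 and 64 counts against 46, 87 and 15, with a log2 fold change of 0.95 and adjusted p = 0.252 in edgeR. HUWE1 was called in 1 of 15 alternatives, edgeR without a filter on low counts (adjusted p = 0.0473), and its adjusted p reached 0.623 in the others. Its log2 fold change was 0.59 without DMSO replicate 3 and 1.45 without DMSO replicate 2. DMSO replicate 3 was low for both genes, as it was for MDM2. CHEK1, the kinase downstream of ATR, had a log2 fold change of 0.40 and an adjusted p of 0.649 in edgeR. On the lower side were ATR, the kinase that senses stalled replication, at −0.52 (edgeR adjusted p = 0.390), and RPL5 and RPL11, ribosomal proteins that bind MDM2, at −0.45 (adjusted p = 0.340) and −0.28 (adjusted p = 0.610). Without DMSO replicate 3 these were −0.27 for ATR, −0.31 for RPL5 and −0.077 for RPL11.

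Of 30 p53 target genes 24 had counts and 8 were tested, 5 of them with a positive log2 fold change and a median of 0.017. The sign of this median was not stable. Without SGC-CLK-1 replicate 1 it was −0.20 with 2 of 8 positive, with limma-voom −0.084 with 3 of 8 positive, and without a filter on low counts −0.16 with 11 of 24 positive. By edgeR 0 were called, and DESeq2 gave an adjusted p to 4 of the 8 and called 0 of them. An unadjusted edgeR p under 0.05 was found for 1 of the 8, on the lower side, beside 6.97% of all tested genes. Without a filter on low counts it was found for 2 of 24 on the higher side and 1 on the lower side, with 0 called. In that fit the shares of all 18776 genes were 4.81% and 3.79%. The gene found on the lower side in both fits was PMAIP1 (NOXA), a BH3-only protein that neutralises MCL1. It had 16, 8 and 8 counts with SGC-CLK-1 and 20, 26 and 21 with DMSO, or 22.5 ± 1.33 CPM against 51.3 ± 4.39 CPM (SD, n = 3). The groups did not overlap, as was the case in the lower direction for 7.66% of all tested genes, and the log2 fold change was −1.24 (SE 0.39, edgeR adjusted p = 0.158). TNFRSF10B, a death receptor, was at 0.47 (adjusted p = 0.704), with 0.21 without SGC-CLK-1 replicate 2 and 0.82 without DMSO replicate 1. The repair genes DDB2 and POLH were at 0.06 and 0.04. TIGAR, which lowers glycolysis, was at −0.22 and the ribosomal protein gene RPS27L at −0.18. The adjusted p of edgeR was over 0.8 for the last 4. Leaving out 1 library moved TIGAR between −0.42 (without SGC-CLK-1 replicate 1) and −0.020 (without SGC-CLK-1 replicate 2), and RPS27L between −0.28 (without DMSO replicate 3) and −0.12 (without DMSO replicate 1).

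Of 15 other genes of the BCL2 family 13 had counts and 4 were tested. By edgeR 0 were called, and 1 had an unadjusted p under 0.05, on the lower side, beside 6.97% of all tested genes. DESeq2 gave an adjusted p to 1 of the 4, BCL2L13, and did not call it. The median was −0.42, and 1 of the 4 had a positive value, the BH3-only gene BAD at 0.16. Without a filter on low counts 6 of 13 were positive, with a median of −0.15. PMAIP1 belongs to this list too and had the lowest value. BCL2L13, a mitochondrial member of the family, was at −0.54 with 30, 3 and 16 counts against 13, 21 and 25, and BID, a BH3-only protein that is activated by caspase-8, was at −0.31 with 11, 17 and 7 against 15, 21 and 6. Both had overlapping groups. When 1 library was left out BCL2L13 ranged from −0.92 to −0.14 and BID from −0.89 to −0.017, the value nearest to 0 being that without SGC-CLK-1 replicate 2 for BCL2L13 and that without SGC-CLK-1 replicate 1 for BID.

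Of 21 caspases and caspase regulators 14 were tested, 8 with a positive log2 fold change, with a median of 0.083. Without DMSO replicate 3 a positive value was found for 5 of 14, and without SGC-CLK-1 replicate 2 for 6 of 15 with a median of −0.14. By edgeR 0 were called. An unadjusted edgeR p under 0.05 was found for 1 on the higher side and 2 on the lower side, beside 6.89% and 6.97% of all tested genes. BIRC6, a very large inhibitor of apoptosis protein that ubiquitinates caspases, had 81, 60 and 63 counts with SGC-CLK-1 and 25, 27 and 25 with DMSO. These are 152 ± 26.4 CPM against 59.6 ± 7.74 CPM (SD, n = 3), and each SGC-CLK-1 library was above each DMSO library, an order found for 12.2% of all tested genes. Its log2 fold change was 1.27 (SE 0.28), and its edgeR adjusted p of 0.0546 missed the threshold narrowly. BIRC6 was called by DESeq2 (adjusted p = 0.0223) and in 3 other of 15 alternatives, over which its adjusted p lay between 0.0130 and 0.245. With the largest transcript in place of the sum its log2 fold change was 0.84 (edgeR adjusted p = 0.112).

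The gene for cytochrome c, CYCS, which is released from mitochondria to activate APAF1, had 121, 59 and 62 counts against 111, 113 and 103 (log2 fold change −0.64, SE 0.22, edgeR adjusted p = 0.192). BIRC5 (survivin), which acts in mitosis and as an inhibitor of apoptosis, had 171, 111 and 85 counts against 172, 200 and 124, with a log2 fold change of −0.59 and adjusted p = 0.198 in edgeR. PARP1, a DNA repair enzyme and caspase substrate, was at 0.46 (adjusted p = 0.390), CASP6, an executioner caspase, at 0.60 (adjusted p = 0.617), and CASP2, an initiator caspase, at −0.22 (adjusted p = 0.653). CASP6 was at 0.29 without SGC-CLK-1 replicate 3 and at 0.90 without SGC-CLK-1 replicate 2.

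**Figure D5:**
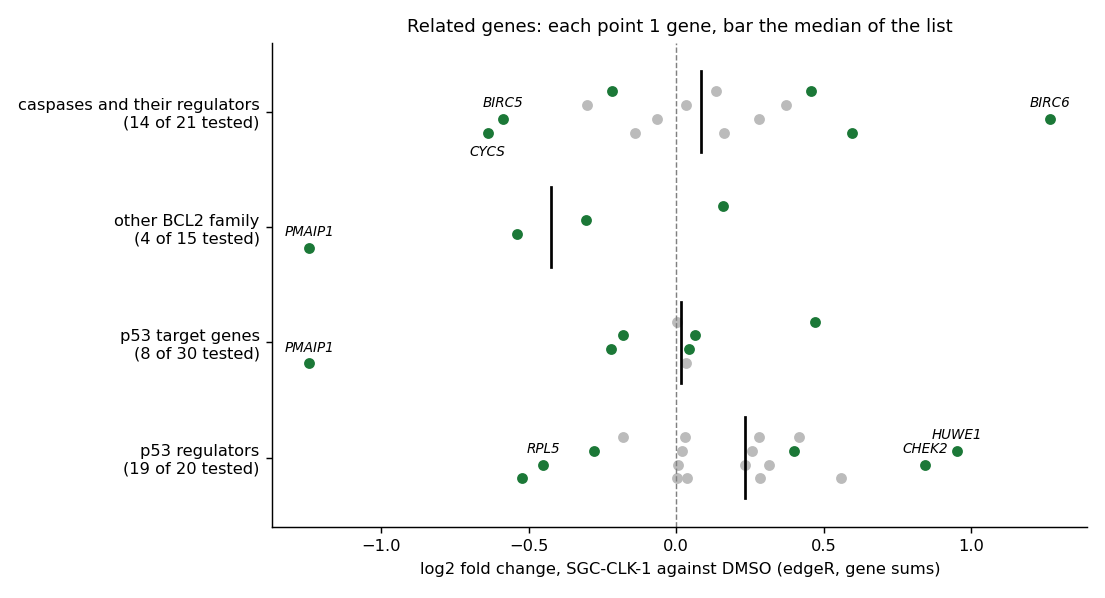
Log2 fold change of gene sums, SGC-CLK-1 against DMSO, for the tested genes of the 4 lists, each point 1 gene (green for genes named in the text by rule, grey for the others) and the bar the median of the list; names stand beside genes with an unadjusted p under 0.05. BIRC6 at 1.27 and PMAIP1 at −1.24 lie farthest from 0, and 0 of the points passed the edgeR threshold after adjustment.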

How the data were processed

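RM82 cells were treated for 24 h. The authors called bases, mapped nanopore reads to human transcripts (hg38, Ensembl release 98) with minimap2, keeping secondary alignments, removed duplicate UMIs, and deposited counts per transcript without normalization. The submitters' processing notes give minimap2 2.22. Which UMI correction made the deposited counts was not given in the sources used here.

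A transcript a library did not list was given 0. Transcripts were matched to genes by identifier in GENCODE release 44 on the same genome build (86362 of 93530, between 92.5% and 93.4% of counts) and summed to genes. edgeR 4.0.16 in R 4.3.3 (filterByExpr, minimum count 10 and total 15, TMM, quasi-likelihood F-test, Benjamini-Hochberg over all features, threshold 0.05) was fitted to all genes, transcripts and, with diffSpliceDGE, transcript usage. The common biological coefficient of variation was 0.244 for genes. DESeq2 1.42.0 and limma 3.58.1 were alternatives. Permutation tests and binomial intervals (95%) used scipy 1.17.1. On simulated counts with 200 genes changed by a fold of 4, edgeR recovered 89.5% of genes, and 82.5% of transcripts in the transcript fit. Both simulations used a coefficient of variation of 0.17, near that of the transcripts and below that of the genes. The share for genes is therefore likely too high, and smaller folds were not simulated.

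The members, lists, tests and alternatives were chosen with earlier results of these data known. Named were all members, their tested or else most abundant transcripts, the classified splice forms, the 3 list genes with the smallest p in each direction and the 3 genes most like MDM4. Libraries of other cells and assays were not used here.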

Additional observations from a re-analysis of the deposited data

How the results depend on the processing

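Under 15 alternatives for gene sums and 12 for transcripts, 0 of the tested members were called, and MDM2 and MDM2-202 kept a positive sign in each. The number of genes called over the whole table was less stable. It was 15 in the edgeR fit, 28 with library size scaling, 169 without a filter, 64 with at least 10 counts in every library, 107 with DESeq2, 29 with limma-voom, 164 with the largest transcript, 0 with protein coding transcripts only, and from 1 to 21 when 1 library was left out. The 310 transcripts called became 162 without a filter, 173 with at least 10 counts in every library, 113 with DESeq2, and between 81 and 363 when 1 library was left out. The 6 genes called for usage became 2 with at least 10 counts in every library, 3 with a total count of at least 6, 9 with the gene-level F test, and 1 to 5 when 1 library was left out. The cause of these differences was not tested.

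The replicate numbers were also used as a block. Same-numbered libraries deviated together with r of 0.06, 0.09 and −0.0018, so the numbers were not taken to pair the libraries. With the replicate block 36 genes and 427 transcripts were called, and 0 of the members.

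Log2 fold changes near 0 turned sign. With library size scaling the MDM4 gene sum was at 0.013, MDM4-209 at 0.034 and MDM4-215 at 0.020. MDM4-209 was at 0.0035 with at least 10 counts in every library and at 0.0024 with the replicate block. When 1 library was left out, the MDM4 gene sum ranged from −0.12 to 0.023, MDM4-203 from −0.028 to 0.31, MDM4-207 from −0.076 to 0.24, MDM4-209 from −0.14 to 0.083, MDM4-214 from −0.14 to 0.018 and MDM4-215 from −0.087 to 0.024. DDB2 was at −0.12 with limma-voom and ranged from −0.40 to 0.40 when 1 library was left out. POLH was at −0.047 with limma-voom, −0.049 with the replicate block and −0.087 with the largest transcript, with a range from −0.35 to 0.38, and BAD ranged from −0.14 to 0.42. The share of MDM4 without exon 6 differed by 0.589 percentage points with all MDM4 counts as denominator, and by −2.25 to 1.41 when 1 library was left out. The BCL2L1 short-form share differed by −2.31 to 8.73 points when 1 library was left out. The median of the other BCL2 family genes was −1.13 with the largest transcript, where 1 of them was tested.

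Depth limits what these counts can show. With total counts of 362826 to 666702 per library, 6 of the 8 genes had too few counts to pass the filter of the fit across all genes, and BBC3 had none. Transcripts of MDM4, MCL1, BCL2L1 and CDKN1A carry counts that cannot be told apart from shared alignments of the same UMI. Of the 23 counted MDM2 transcripts, 6 had the same counts as another, and the same limit holds for them. The same counts as another were found for 2 of 2 counted MCL1 and 4 of 4 CDKN1A transcripts. They were found for 0 of 15 MDM4 and 0 of 4 BCL2L1 transcripts, where sharing can be partial.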
